A study of Mus musculus with 2 samples.

Results

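The 10 genes described here encode proteins that shorten or lengthen the life of messenger RNAs, together with the Btg/Tob family of antiproliferative proteins: Zfp36, Zfp36l1, Zfp36l2, Btg1, Btg2, Tob1, Tob2, Zc3h12a, Rc3h1 and Elavl1. They were chosen by gene symbol, and every probe set that the platform annotation assigns to one of them alone was taken, which gave 27 probe sets for 10 of 18193 genes measured. The arrays compared mouse regulatory T cells that dendritic cells had induced in vivo and that were collected after immunization. One array was hybridised with Hopx-/- cells and 1 with Hopx-sufficient cells, both sorted on CD25 and Foxp3. Strain, age, the number of mice behind each array and the part of Hopx that was deleted are not given in the sources used here. Hopx is a small homeodomain protein that acts as a transcriptional cofactor and does not bind DNA itself.

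T cells set the level of many regulatory transcripts by how fast they are destroyed. Proteins of the Zfp36 family bind AU-rich elements, short adenine- and uridine-rich stretches in the tails of cytokine and growth-control mRNAs, and recruit the CCR4-NOT complex, which removes the poly(A) tail. Btg and Tob proteins bind the deadenylase subunits of the same complex and are known for holding cells, resting T cells among them, out of division. Regnase-1, encoded by Zc3h12a, and Roquin-1, encoded by Rc3h1, act on stem-loops in immune mRNAs, while HuR, encoded by Elavl1, binds AU-rich elements and mostly stabilises the transcript.

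The deposited values are on a log scale taken as base 2, and each is given relative to the average of both arrays, so the 2 values of a probe set mirror each other and no signal level is known. Differences below are Hopx-/- minus Hopx-sufficient and positive where the Hopx-/- array was higher. Each genotype had a single array, so replicate error is unknown for every difference and no test was made. A fold of 1.5 was used as a rule of size. Hopx itself was lower on the Hopx-/- array, where its 2 probe sets differed by -5.43 and -4.86. Over all genes the differences had a median of 0.0082 and a standard deviation of 0.21, and the central 95% ran from -0.47 to 0.38. The standard deviation between probe sets of the same gene was 0.18. Hybridisation spike-ins, which carry no mouse sequence, gave differences from -0.21 to 0.015 over 18 probe sets.

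Promoters of the 3 genes that differed most, Zfp36, Btg1 and Btg2, are shown because these genes were higher together on the Hopx-/- array. Each is the 250 bases before the annotated start, 5′ to 3′ on the gene's strand, from RefSeq (GRCm38.p6). Zfp36 lies at chr7:28379229-28379478 on the minus strand, Btg1 at chr10:96616751-96617000 on the plus strand and Btg2 at chr1:134079156-134079405 on the minus strand. Capitals mark matches to the motifs given after the sequences.
Zfp36: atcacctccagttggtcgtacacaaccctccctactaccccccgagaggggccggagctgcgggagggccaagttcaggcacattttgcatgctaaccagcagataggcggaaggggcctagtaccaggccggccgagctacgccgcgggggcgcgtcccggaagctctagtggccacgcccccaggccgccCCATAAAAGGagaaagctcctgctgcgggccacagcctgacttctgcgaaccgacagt
Btg1: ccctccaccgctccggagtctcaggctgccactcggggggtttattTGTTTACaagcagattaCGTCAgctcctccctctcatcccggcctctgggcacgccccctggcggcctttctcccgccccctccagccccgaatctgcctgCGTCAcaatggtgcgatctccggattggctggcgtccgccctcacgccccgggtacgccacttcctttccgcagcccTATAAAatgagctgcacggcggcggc
Btg2: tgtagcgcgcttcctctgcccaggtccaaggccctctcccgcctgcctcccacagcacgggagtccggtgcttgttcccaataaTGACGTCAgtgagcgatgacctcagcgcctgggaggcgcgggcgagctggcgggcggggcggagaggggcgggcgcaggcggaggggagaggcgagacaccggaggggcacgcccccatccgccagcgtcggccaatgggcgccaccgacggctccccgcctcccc

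The motifs were searched on both strands. They were the cyclic AMP response element TGACGTCA, its core TGACG, the AP-1 element TGANTCA, the CArG box of serum response factor, the FOXO element TGTTTAC and the TATA hexamer TATAAA. A full cyclic AMP response element holds 2 overlapping matches of the core. Of the 10 genes, 9 had a window. Zfp36 held a CArG box from 58 to 49 bases before the start, a motif found in 1.47% of all 32851 windows. Btg2 held the full cyclic AMP response element from 166 to 159 bases before the start, found in 1.55% of windows. Btg1 held 2 matches of the core (17.8% of windows), a FOXO element (3.17%) and a TATA hexamer (12.4%). Among the other genes, Zfp36l1 held an AP-1 element (6.75% of windows) and a TATA hexamer, Tob1 a core and a TATA hexamer, and Rc3h1 an AP-1 element. The windows of Tob2, Zc3h12a and Elavl1 held no match to these letters. A match describes the sequence and is not evidence of binding.

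The Zfp36 family and 3 of the 4 Btg/Tob genes were higher on the Hopx-/- array, and the 2 largest differences, of Zfp36 and Btg1, were just over 1.5-fold. By gene, 8 of the 10 differed by more than 0 and 2 by less, where 51.4% of all genes were above 0. The gene means ran from -0.032 to 0.62 with a median of 0.24, against a median of 0.0082 over all genes. At least 1.5-fold apart in either direction were 2 of the 10, where 1.57% of all genes were. Both were higher, as were 0.313% of all genes. None was 2-fold higher or lower, where 0.011% and 0.137% of all genes were. By probe set, 19 of 27 were above 0, where 50.6% of all probe sets were. Because the genes were proposed with results of these arrays in view, these counts describe them and give no support. RNA was taken from a whole sorted population, so a change in the cells' makeup and a change of transcript per cell cannot be told apart.

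**Figure D1:**
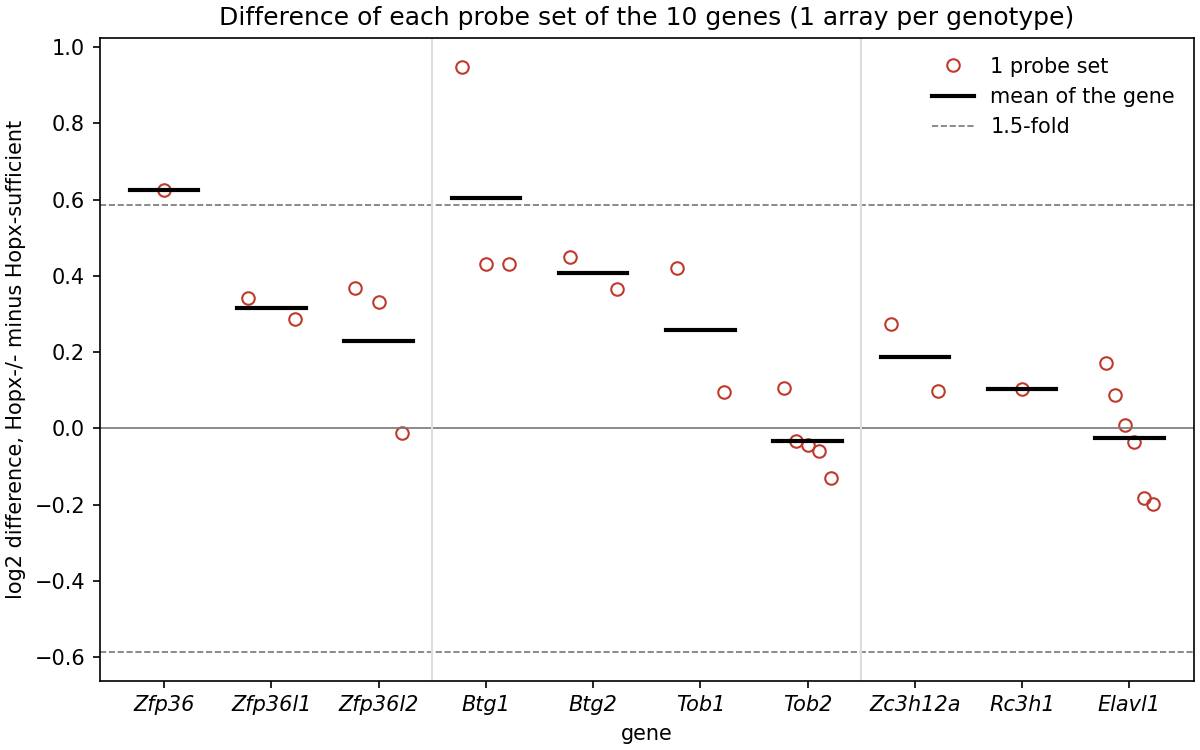
Log2 difference, Hopx-/- minus Hopx-sufficient, of every probe set (circles) of the 10 genes, with the mean of each gene (bars) and the 1.5-fold lines (dashed). Zfp36 (0.62) and Btg1 (0.60) pass the upper line by their means, Tob2 and Elavl1 lie around 0, and a single Btg1 probe set at 0.95 stands above its other 2.

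Zfp36 encodes tristetraprolin, the founding member of its family and itself an early-response gene. Its only probe set had a value of 0.31 on the Hopx-/- array and -0.31 on the Hopx-sufficient array, a difference of 0.62, or 1.54-fold higher. It ranked 41 of 18193 genes from the highest. Among the 9183 genes that also had 1 probe set, 0.392% were as high. No second probe set checks this value.

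Zfp36l1 and Zfp36l2 encode the other family members measured, which are needed together for normal thymocyte development. The 2 probe sets of Zfp36l1 had values of 0.17 and 0.14 on the Hopx-/- array and -0.17 and -0.14 on the Hopx-sufficient array. Their differences of 0.34 and 0.29 averaged 0.31, or 1.24-fold higher, and lay close to each other. Those of Zfp36l2 had values of 0.18, 0.17 and -0.0063 on the Hopx-/- array and -0.18, -0.17 and 0.0063 on the Hopx-sufficient array. Zfp36l2 differed by 0.37 and 0.33 in 2 probe sets but by -0.013 in the third, so its mean was 0.23 with a standard deviation of 0.21 between probe sets. In all, 5 of the 6 probe sets of the family were higher on the Hopx-/- array. The step of 0.40 between the means of Zfp36 and Zfp36l2 sets a gene with 1 probe set against one whose probe sets differed among themselves.

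Btg1 is abundant in resting lymphocytes and recruits deadenylases to mRNAs. Its 3 probe sets had values of 0.47, 0.22 and 0.22 on the Hopx-/- array, against -0.47, -0.22 and -0.22 on the Hopx-sufficient array. All were higher in Hopx-/- cells, at 0.95, 0.43 and 0.43, and averaged 0.60 (1.52-fold higher, standard deviation 0.30 between probe sets). The mean passed 1.5-fold through the first of them, and the 2 others, which gave nearly the same value, averaged 0.43. Of the 2366 genes with 3 probe sets, 2, Btg1 included, had a mean as high as that of Btg1, and 2, again with Btg1, had a lowest probe set as high.

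Btg2, known as a p53-induced and early-response gene, differed by 0.45 and 0.36 in its 2 probe sets. These came from values of 0.23 and 0.18 on the Hopx-/- array and -0.23 and -0.18 on the Hopx-sufficient array. The mean was 0.41, or 1.33-fold higher, with a standard deviation of 0.061 between probe sets, well under the 0.18 usual within a gene. Among the 4695 genes with 2 probe sets, 1.15% had a mean as high as that of Btg2. With Zfp36 and Btg1, Btg2 was 1 of 3 genes of the 10 above the central 95% of all genes.

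The 2 Tob genes, which link the poly(A)-binding protein to the deadenylases, differed from each other. Tob1, described in T cells as a gene of quiescence that activation lowers, had values of 0.21 and 0.048 on the Hopx-/- array and -0.21 and -0.048 on the Hopx-sufficient array. Its probe sets thus differed by 0.42 and 0.095, and their mean was 0.26 (1.20-fold higher). Tob2 lay at -0.032 by its mean, with 4 of 5 probe sets below 0 and a range from -0.13 to 0.11. The step between Tob1 and Tob2 was 0.29, but the lower Tob1 probe set lay inside the range of Tob2, so the 2 genes were not separated by every probe set.

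Zc3h12a and Rc3h1 belong to the stem-loop route. Zc3h12a, the endonuclease gene, had values of 0.14 and 0.050 on the Hopx-/- array and -0.14 and -0.050 on the Hopx-sufficient array, and its mean difference was 0.19 (1.14-fold higher). Rc3h1 had 1 probe set, at 0.052 on the Hopx-/- array and -0.052 on the Hopx-sufficient array, and differed by 0.10. Both values were within the standard deviation of all genes. Elavl1, the gene of the stabilising protein, was the most evenly split, with 3 probe sets above 0 and 3 below, from -0.20 to 0.17, and a mean of -0.025.

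**Figure D2:**
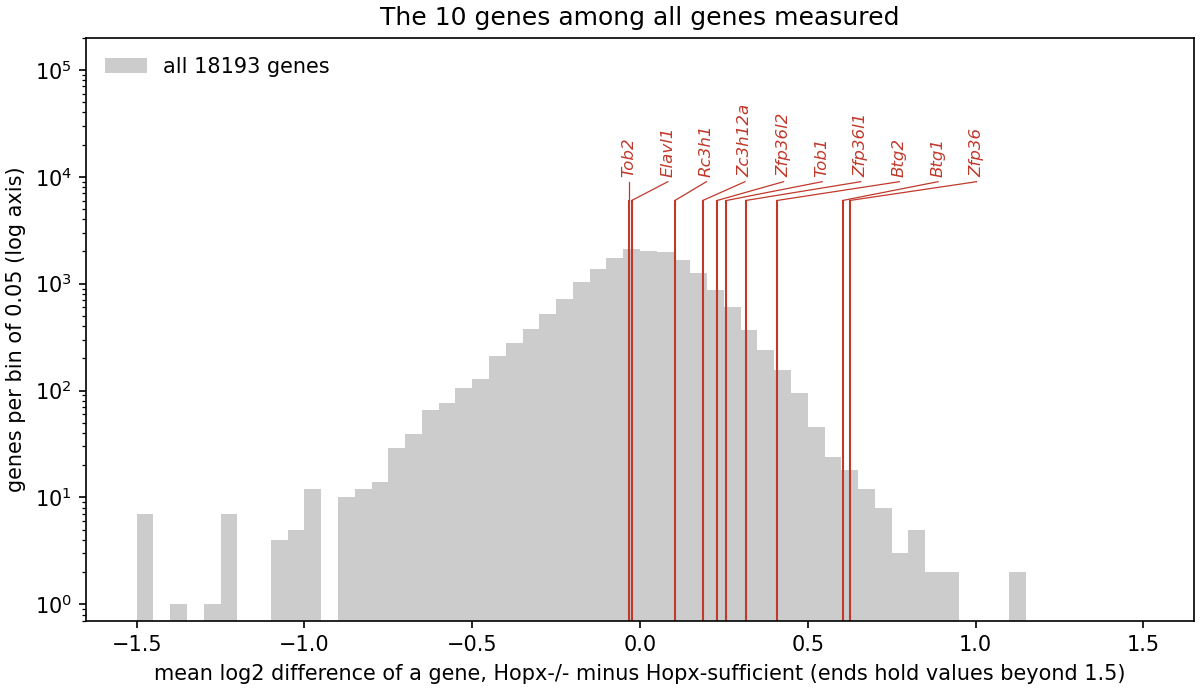
Number of genes (log axis) by mean log2 difference, Hopx-/- minus Hopx-sufficient, for all 18193 genes (grey), with the 10 genes marked in red. Tob2 and Elavl1 sit at the centre of the distribution and Zfp36 and Btg1 in its sparse upper end, where 0.313% of genes were at least 1.5-fold higher.

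Probe sets of the same gene were compared with each other. They read the same RNA on the same 2 arrays, so they can check a probe set but not the difference between genotypes. The genes were chosen with results of these arrays in view, so the count below describes them and gives no support. Of the 8 genes with 2 or more probe sets, 5 had every probe set above 0 (Zfp36l1, Btg1, Btg2, Tob1 and Zc3h12a), where 24.1% of the 9010 genes with 2 or more probe sets did. The standard deviation within a gene was 0.17 over these 8 genes, close to the 0.18 over all genes.

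The named relatives of the Regnase, Roquin and Btg genes lay above 0, some barely, and those of Elavl1 lay on both sides of it. Btg3, Zc3h12b and Zfp36l3 had no probe set assigned to them alone. Zc3h12d, a Regnase relative expressed in lymphocytes, differed by 0.50 (1 probe set), Btg4 by 0.18 (1 probe set) and Zc3h12c by 0.048. Rc3h2, the paralogue of Rc3h1, averaged 0.0033 over 7 probe sets that ran from -0.39 to 0.27. Of 19 other sequence-specific decay factors measured, Zc3h12d, Zc3h12c and Rc3h2 among them, 12 were above 0 and 7 below (median 0.048), and none reached 1.5-fold. Hnrnpd, which encodes the AU-rich element binding protein AUF1, differed by -0.33, with all 3 probe sets below 0. Elavl4, a mainly neuronal relative of Elavl1, averaged -0.30, with probe sets from -0.63 to 0.029. Its relatives Elavl2 and Elavl3 averaged 0.096 and 0.080.

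The deadenylation machinery that these proteins recruit was mixed. Of 16 genes of deadenylation measured, 10 were above 0 and 6 below, with a median of 0.016 and none at 1.5-fold. Cnot1, a further gene of the CCR4-NOT complex, had no probe set assigned to it alone. The deadenylase genes that Btg and Tob proteins bind, Cnot7 and Cnot8, differed by -0.081 and -0.0047. Cnot9, a subunit of the same complex, was lowest at -0.55 (1 probe set). Of the cytoplasmic poly(A)-binding proteins, Pabpc4 differed by -0.43 and Pabpc1 by 0.43, but the probe sets of Pabpc1 disagreed, at 0.87 and -0.0050.

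Genes further down the decay route lay mostly below 0. Of 16 genes of the RNA exosome and SKI complex, which degrade RNA from the 3′ end, 15 were below 0, where 47.4% of all genes were. Their median was -0.19, and 2 were at least 1.5-fold lower: the catalytic subunit gene Dis3 (-0.76, 1.69-fold) and Exosc6 (-0.60, 1.51-fold), each by 1 probe set. Of all genes, 1.57% were at least 1.5-fold apart in either direction and 0.313% at least 1.5-fold higher. Ttc37, a scaffold of the SKI complex, averaged -0.50 over probe sets at -0.64 and -0.37. The 18 spike-in probe sets had a median of -0.12 and a lowest value of -0.21. The exosome median lay inside their range, but it is a median of gene means and their range is of single probe sets. Over all genes the median was 0.0082. With each gene read by its most different probe set, the exosome median was -0.34. That rule picks values further from 0 and was not used for the spike-ins, so -0.34 cannot be set against their range. The part of a technical shift in the exosome median was not tested.

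Of 18 genes of decapping and 5′ to 3′ decay, 13 were below 0 and 5 above (median -0.066). Lsm2 was 1.52-fold lower by 1 probe set, while Lsm3 differed by -0.37 and the decapping enzyme gene Dcp2 by -0.36. Of 7 genes of nonsense-mediated decay, 4 were above 0 and 3 below (median 0.027). Upf1, the helicase of that route, stood furthest out at -0.46, and Smg1 (0.16) and Smg8 (0.11) followed.

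**Figure D3:**
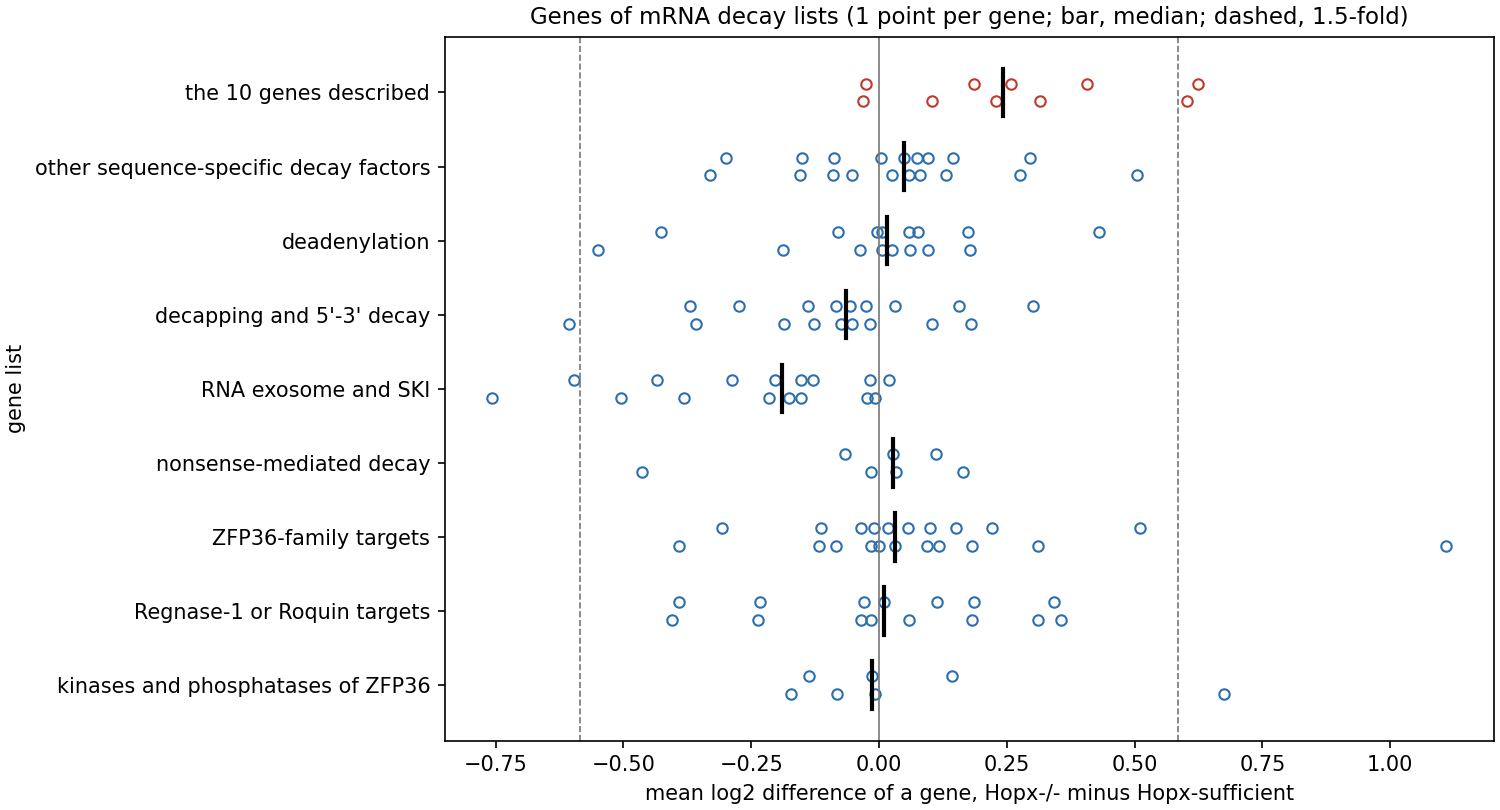
Mean log2 difference, Hopx-/- minus Hopx-sufficient, of each gene (circles) of the 10 genes and of 8 lists, with list medians (bars) and the 1.5-fold lines (dashed). The 10 genes have a median of 0.24, while the medians of the 8 lists run from -0.19 for the RNA exosome and SKI complex to 0.048 for other sequence-specific decay factors. Lists of cell type markers are not drawn. Among them, T cell and regulatory T cell markers had a median of 0.23, close to that of the 10 genes.

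Transcripts known as targets of the Zfp36 family went both ways. Of 21 measured, 12 were above 0, 8 below and Il10 at 0 (median 0.032). Fos, an AP-1 subunit gene whose mRNA is a classic AU-rich element transcript, was 2.16-fold higher (1.11, 1 probe set), and the chemokine gene Ccl3 differed by 0.51. Il2, the T cell growth factor gene, differed by -0.39, Ifng by -0.31 and Tnf by -0.035. Of 15 targets of Regnase-1 or Roquin, a list that holds Zc3h12a itself, 8 were above 0 and 7 below (median 0.010). The transcription factor gene Irf4 was lowest at -0.41, and the costimulator gene Icos was highest at 0.36, with all 3 probe sets above 0. Among 7 genes for kinases and phosphatases that act on proteins of the Zfp36 family, directly or through p38, 2 were above 0 (median -0.013). Dusp1, the phosphatase that switches off p38, was 1.60-fold higher (0.68, 1 probe set), against 0.14 for the p38 gene Mapk14 and -0.17 for Akt1.

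Markers of cell types also differed between the arrays. Of 10 T cell and regulatory T cell markers measured, 8 were above 0 and 2 below (median 0.23, from -0.049 to 0.37), with Ikzf2 at 0.37, Ctla4 at 0.34 and Cd3g at 0.29. Of the genes of the sort markers, Foxp3 differed by 0.28 and Il2ra, which encodes CD25, by -0.049. Cd4 differed by -0.0056. Of 15 macrophage and dendritic cell markers, 10 were above 0 and 5 below (median 0.096). They ran from -0.38 for Lyz2 to 0.51 for Cd14, with C1qb at 0.42, C1qc at 0.41 and Itgam at -0.15. Of 9 B cell markers, 8 were below 0 (median -0.075, from -0.41 to 0.11), with Cd79a at -0.41, Ebf1 at -0.39 and Cd22 at -0.29. Of 9 CD8 T and NK cell markers, 5 were above 0 (median 0.014, from -1.22 for Gzma to 0.44 for Nkg7), with Klrd1 at -0.41. Neutrophil and mast cell markers had 6 of 9 above 0 (median 0.026, from -0.21 for Mpo to 0.35 for Mcpt4), with S100a8 at 0.14. The table holds no signal levels, so whether these markers were detected cannot be given, and the labelled cell type cannot be checked against them. Their part in the differences of the 10 genes was not tested. As a sign of RNA integrity, the 3′ minus 5′ difference of control probe sets ran from -0.092 (Gapdh) to 0.53 (transferrin receptor). The part of RNA integrity in these differences was not tested either.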

How the data were processed

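The authors deposited 1 table of log2-type values for 45101 probe sets of a single-colour Affymetrix array, with 1 column per array. The columns sum to 0 within 1e-06 in every row, so each probe set was centred on the mean of the 2 arrays. The log base, summarisation and normalization are not stated in the sources used here; base 2 was assumed. If natural logs were deposited, each difference is 1.44 times larger. Per the labels' protocols, total RNA was extracted with Trizol before clean-up and biotin labelling.

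Gene names came from the 2016 annotation of the platform and from gene IDs of a RefSeq table (GRCm38.p6), which held the IDs of 34741 of 34945 probe sets with 1 symbol. Left out of gene values were 64 controls, 9160 probe sets without a symbol and 932 with more than 1. The value of a gene is the mean difference over its probe sets, without centring. The number of arrays limits the precision. The averaging code was run on simulated data with independent noise, which checks the code and not the differences between these arrays. The members and gene lists were chosen with earlier results of these data known. Named are the 10 genes, their relatives and Hopx. In each of 14 lists, the 3 genes furthest from 0 and those at least 1.5-fold apart are also named. Cnot7, Cnot8, Ifng, Tnf, Il10, Foxp3, Il2ra, Cd4, Lyz2, Itgam, Zbtb46, Elavl2 and Elavl3 were named after their values were seen. Python 3.11.15, numpy 2.4.6, pandas 2.3.3 and matplotlib 3.10.9 were used.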

Additional observations from a re-analysis of the deposited data

How the results depend on the processing

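No paired analysis was possible because there is 1 array of each genotype; for the same reason none could be omitted. The alternatives were centring on the median difference, a gene value taken as the median or as the most different of its probe sets, leaving out probe sets whose ID suffix (_a_at, _s_at or _x_at) marks a match to several transcripts, leaving out those with the finest numeric steps (none of the 27), natural logs, and other thresholds. None of the 59 values of the 10 genes under these alternatives changed sign, and 55 moved by less than the standard deviation within a gene. Many of the 59 could not have come out otherwise. Natural logs multiply each value by 1.44, and dropping the finest steps removes none of the 27 probe sets. Centring shifts every value by 0.0075, less than the size of any of the 10 means. Zfp36 and Rc3h1 have 1 probe set each, so no rule for combining probe sets can move them. The 59 and 55 therefore do not measure robustness. With natural logs Zfp36 stood at 0.90 and Btg1 at 0.87, and Btg1 stood at 0.95 by its most different probe set or without suffixed probe sets. The count of 2 genes at least 1.5-fold higher became 1 with the median probe set, which takes Btg1 to 0.43, and 1 without suffixed probe sets, which leaves Zfp36 without a probe set. It was 3 with natural logs and 0 at 2-fold, and a threshold below 1.5-fold gave 3, with Btg2 (1.33-fold) added. Of 168 list counts under these alternatives, 163 stayed within 1.5 times the reported count. Natural logs cannot move a count of genes above or below 0. Of 84 list medians, 5 changed sign, in 5 lists whose reported medians lay near 0, and 20 kept their sign but moved by over 1.5 times in size, natural logs not counted. With the median probe set the medians were -0.017 for nonsense-mediated decay and -0.015 for Regnase-1 or Roquin targets. Without suffixed probe sets they were 0.013 for the kinases and phosphatases, -0.15 for CD8 T and NK cell markers and -0.032 for neutrophil and mast cell markers. The exosome median was -0.34 by the most different probe set. Without suffixed probe sets, which leaves fewer genes, 3 measured genes of deadenylation and 3 of the kinases and phosphatases were below 0, and 0 B cell markers, 3 CD8 T and NK cell markers and 3 neutrophil and mast cell markers were above 0. The macrophage and dendritic cell median was 0.32 by the most different probe set, which reads Zbtb46 at 0.35 in place of its mean of 0.0047.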

Other observations

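Other routes that act on mRNA life were read from 3 lists added after the values above were seen. Of 13 genes of the microRNA pathway, 5 were above 0 and 8 below in Hopx-/- cells relative to Hopx-sufficient cells, with a median of -0.076 and none at 1.5-fold. Tarbp2, a partner of Dicer, differed by -0.42 and the export receptor gene Xpo5 by -0.31, each with both probe sets below 0, while the Argonaute gene Ago4 differed by 0.27. Of 13 measured genes that write, read or erase N6-methyladenosine, 6 were above 0 and 7 below (median -0.064), from -0.17 for Fto to 0.18 for Ythdc1, with Rbm15 at -0.16. Of 6 genes of RNA uridylation, which marks deadenylated mRNAs for decay, 3 were above 0 and 3 below (median 0.026). The uridylyltransferase genes Tut4, with all 5 probe sets above 0, and Tut7 differed by 0.27 and 0.12, and Tut1, which acts on U6 RNA, by -0.18.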
